A study of Homo sapiens with 6 samples.

Results

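The 36 genes described here are the transcription factor NRF2 (gene NFE2L2), its repressor KEAP1, further regulators, and genes for antioxidant, glutathione, thioredoxin, NADPH and iron-handling proteins. Members were taken by symbol: every probe set whose single gene symbol in the platform annotation was on the list was included, and aldo-keto reductases were left out. This gave 83 of the 49372 probe sets, and they covered 33 of the 36 genes, out of 18132 genes with such a probe set. SOD2, PRDX5 and FTH1 had no probe set with 1 symbol and were not analysed here. The rule reads only the symbol, but the list was drawn up with earlier results of these arrays known.

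ARPE-19, an established line of human retinal pigment epithelial cells, received 2.5 µg of plasmid per well in plates of 6 wells. The control plasmid carried GFP alone (3 arrays, called GFP). The other carried GFP with satellite alpha (3 arrays, called SATalpha), a tandem repeat found at human centromeres. Both arms thus shared the cell line, the transfection and GFP. The share of transfected cells, the time to harvest and whether the 3 arrays of an arm came from separate cultures were not given in the sources used here. Each p-value thus reflects only the spread between the arrays of an arm. Values are log2 expression per probe set as the authors deposited them, with array medians from 5.29 to 5.31. Each gene was represented by its probe set of highest mean, and all 33 genes lay above the floor of 5.19, below which genes were not tested. In RNA pooled over many cells, a change in fewer cells and a smaller change in all cells cannot be told apart. Of the retinal pigment epithelium markers, RPE65 (mean 3.41), RLBP1 (4.14) and BEST1 (4.62) lay below the floor, while MITF (8.11) and OTX2 (8.34) lay above it. In all 9 of 15 such markers lay above it. Of these 9, 2 passed an adjusted p of 0.05, against 20.8% of all tested genes, and the rest did not. The 2 were the epithelial keratins KRT8 (-0.13, limma adjusted p = 0.0266) and KRT18 (-0.21, limma adjusted p = 0.000675), both lower with satellite alpha. The part of the keratins in the differences below was not tested.

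NRF2 is a transcription factor that KEAP1 holds in the cytoplasm and delivers to a ubiquitin ligase for degradation. When electrophiles or oxidants modify KEAP1, NRF2 escapes, enters the nucleus, pairs with a small MAF protein and binds antioxidant response elements, from which BACH1 can displace it. Its targets make and recycle glutathione and thioredoxin, supply NADPH, detoxify quinones and handle heme and iron. NRF2 itself is regulated largely at the level of the protein, so its mRNA does not measure its activity. The retinal pigment epithelium lives with light, high oxygen and phagocytosed photoreceptor membranes, and this system is a main part of its defence.

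The core of the antioxidant response element was searched as TGACNNNGC and TGAGNNNGC on both strands of RefSeq promoters (GRCh38.p14), which run from 250 bases before to 50 after each listed start. Of the 36 members 29 had an entry, and 15 of these 29 (51.7%) held a match, against 9201 of 27305 genes (33.7%). Among called members 5 of 9 with an entry had a match (NFE2L2, KEAP1, NQO1, OSGIN1 and UGDH), and among members not called 9 of 18. A match is only a run of letters, and elements farther from the start lie outside this window. The windows below are those of the member that fell most, a target that rose, the repressor, and 4 members that did not pass the test. Not every match is shown: the promoter with most matches held 3 for KEAP1 and 2 each for GCLM, TXNRD1, GSTP1 and ME1. Each window is given on the strand on which the match reads forward, with the match in capitals and 10 bases on either side.
OSGIN1: ttcataagcgTGAGTCAGCaggggcccgt
NQO1: cggaggatgcTGAGGCTGCagctccagga
KEAP1: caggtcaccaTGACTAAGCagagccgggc
GCLM: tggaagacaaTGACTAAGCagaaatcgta
TXNRD1: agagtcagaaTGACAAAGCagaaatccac
GSTP1: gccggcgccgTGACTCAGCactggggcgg
ME1: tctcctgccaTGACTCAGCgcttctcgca
The OSGIN1 window is chr16:83953131-83953159 (minus strand), 99 bases before the start as counted from the match's far edge, and the NQO1 window is chr16:69726661-69726689 (plus strand), 119 bases before. The KEAP1 window is chr19:10502784-10502812 (plus strand), 31 bases before, and the GCLM window chr1:93909446-93909474 (plus strand), 34 bases before. These 2 share the letters TGACTAAGC. The TXNRD1 window is chr12:104286920-104286948 (minus strand), 102 bases before. Another listed start of TXNRD1 had the match TGACTTCGC 99 bases before it. The GSTP1 window is chr11:67583736-67583764 (plus strand), 66 bases before, and the ME1 window chr6:83431170-83431198 (minus strand), 137 bases before. The matches of OSGIN1, GSTP1 and ME1 also hold TGAGTCA or TGACTCA, the letters bound by AP-1 factors. The full TGACTCAGC or TGAGTCAGC was found for 3 members and for 1.2% of all genes in the table.

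Members of the NRF2 system moved in both directions with satellite alpha, and 9 of the 10 called differences were at most 0.27 in size. OSGIN1, an NRF2-inducible regulator of cell growth and death, fell by 0.59 on the log2 scale, while NQO1, PRDX1, TXN, CAT and UGDH rose by 0.15 to 0.27. NFE2L2, KEAP1, GPX1 and GPX4 fell by 0.14 to 0.18. Of the 33 members 5 rose (15.2%), 5 fell (15.2%) and 23 did not pass an adjusted p of 0.05 in limma, fitted over 10879 genes. Among all tested genes 20.8% passed, 7.72% higher and 13.0% lower. The median difference was 0.01 over the members and -0.02 over all tested genes, and the median size was 0.07 over the members and 0.09 over all tested genes. Only OSGIN1 among the members changed by at least 1.5-fold, as did 0.818% of all tested genes. The SATalpha values lay wholly above the GFP values in 7 members and wholly below in 6, together 39.4% of members. Over all tested genes these shares were 14.4% above and 23.2% below, together 37.6%. The number of members higher ran from 2 without GFP replicate 2 (3 without GFP replicate 1 or SATalpha replicate 1) to 6 without SATalpha replicate 3. The number lower ran from 2 without GFP replicate 1 (3 without GFP replicate 2 or 3) to 5.

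**Figure D1:**
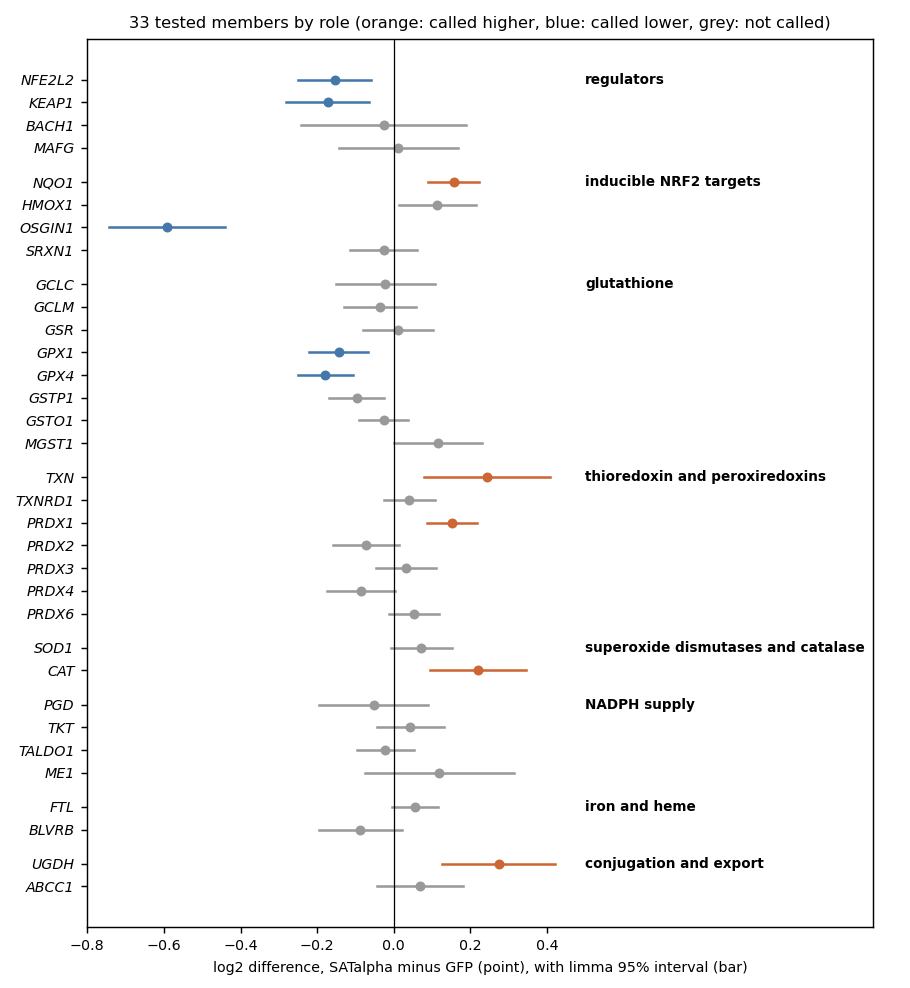
Log2 difference (SATalpha minus GFP, horizontal axis) of each of the 33 tested members, grouped by role, with limma's 95% interval as a bar. OSGIN1 at -0.59 stands apart from the other members, whose differences lie between -0.18 and 0.27.

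**Figure D2:**
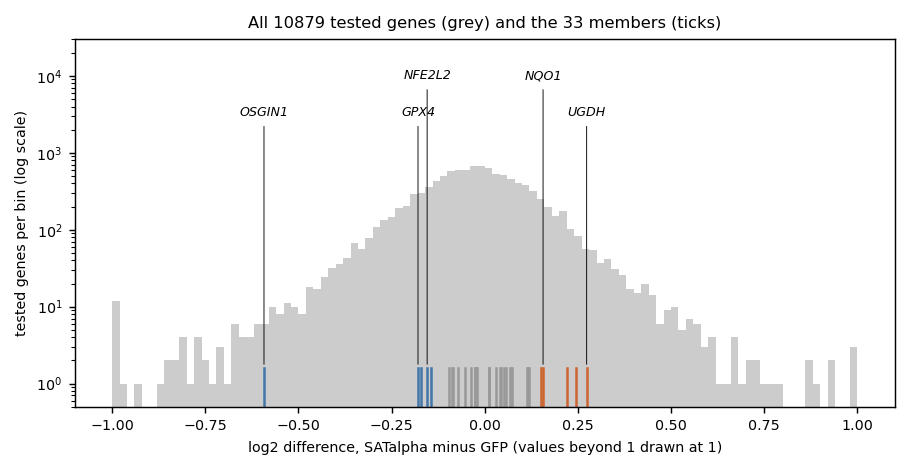
Histogram of the log2 differences (SATalpha minus GFP) of all 10879 tested genes with the number of genes per bin on a log axis, and a tick for each of the 33 members (orange higher, blue lower, grey not called). Apart from OSGIN1, the members sit within the central part of the distribution, between -0.18 and 0.27.

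Among the regulators, NFE2L2 and KEAP1 both fell and BACH1 and MAFG did not pass. NFE2L2, which encodes NRF2, was at 10.64, 10.63 and 10.65 in the GFP arrays and at 10.57, 10.50 and 10.39 in the SATalpha arrays. All SATalpha values were below all GFP values, and the SATalpha arrays spread more (SD 0.088 against 0.0094, n = 3). The difference was -0.15 (SE 0.044, limma adjusted p = 0.024). Its other probe set stood at 9.60, 9.67 and 9.48 with GFP and at 9.48, 9.38 and 9.35 with satellite alpha, a difference of -0.18 that did not pass over all probe sets (limma adjusted p = 0.0566). KEAP1, the adaptor that marks NRF2 for degradation, was at 8.07, 8.15 and 8.11 with GFP and at 7.95, 7.91 and 7.96 with satellite alpha. The groups did not overlap, and the difference was -0.17 (SE 0.051, limma adjusted p = 0.0279).

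The calls of both regulators were close to the threshold. Leaving out GFP replicate 1 (-0.16), GFP replicate 2 (-0.16), GFP replicate 3 (-0.15) or SATalpha replicate 3 (-0.11) ended the call of NFE2L2, whose adjusted p ran from 0.0107 to 0.0933 across alternatives. That of KEAP1 ended without any one of GFP replicates 1 (-0.19), 2 (-0.15) and 3 (-0.17) and SATalpha replicates 1 (-0.18) and 2 (-0.16), and its adjusted p ran from 0.0121 to 0.103 across alternatives. BACH1, the repressor that competes with NRF2 for its elements, differed by -0.03 (95% interval -0.24 to 0.19). It was read from 1 probe set near the floor. MAFG, a small MAF partner of NRF2, differed by 0.01 (95% interval -0.14 to 0.17). The MAFG probe set used was listed together with another that held identical values in all 6 arrays, and a further MAFG probe set differed by 0.18 (limma adjusted p = 0.153 over probe sets).

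The inducible targets split, with OSGIN1 lower, NQO1 higher and HMOX1 and SRXN1 not past the threshold. OSGIN1 stood at 7.10, 7.09 and 7.11 with GFP and at 6.39, 6.61 and 6.53 with satellite alpha. The lowest GFP value was far above the highest SATalpha value. The means were 7.10 ± 0.011 and 6.51 ± 0.11 (SD, n = 3), a difference of -0.59 (SE 0.071, limma adjusted p = 6.7e-05), which is 0.663-fold. The second OSGIN1 probe set read 7.25, 7.13 and 7.14 with GFP and 6.26, 6.31 and 6.12 with satellite alpha. It fell further, by 0.94 on the log2 scale or to 0.521-fold (limma adjusted p = 2.98e-06 over probe sets). OSGIN1 passed whichever array was left out.

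NQO1, the quinone reductase that is the usual reporter of NRF2 activity, was at 11.78, 11.78 and 11.79 with GFP and at 11.94, 11.93 and 11.96 with satellite alpha. The replicates lay within a few hundredths of each other and the groups were separate. The rise of 0.16 (SE 0.031, limma adjusted p = 0.00291) is 1.11-fold. In its other probe set the values were 10.84, 10.89 and 10.81 with GFP and 11.12, 11.00 and 11.16 with satellite alpha, a rise of 0.25 (limma adjusted p = 0.00266 over probe sets). The call held whichever array was left out.

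HMOX1, heme oxygenase, which opens the heme ring and is induced by oxidants, was at 8.63, 8.68 and 8.58 with GFP and at 8.75, 8.76 and 8.73 with satellite alpha. The groups did not overlap, yet the difference of 0.11 (95% interval 0.01 to 0.21) did not pass (limma adjusted p = 0.102). The other 2 HMOX1 probe sets differed by 0.06 and 0.08, with overlapping groups. SRXN1, sulfiredoxin, which restores over-oxidized peroxiredoxins, stood at 9.50, 9.52 and 9.53 with GFP and at 9.45, 9.50 and 9.51 with satellite alpha. Its groups overlapped, and the difference was -0.03 (95% interval -0.11 to 0.06).

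**Figure D3:**
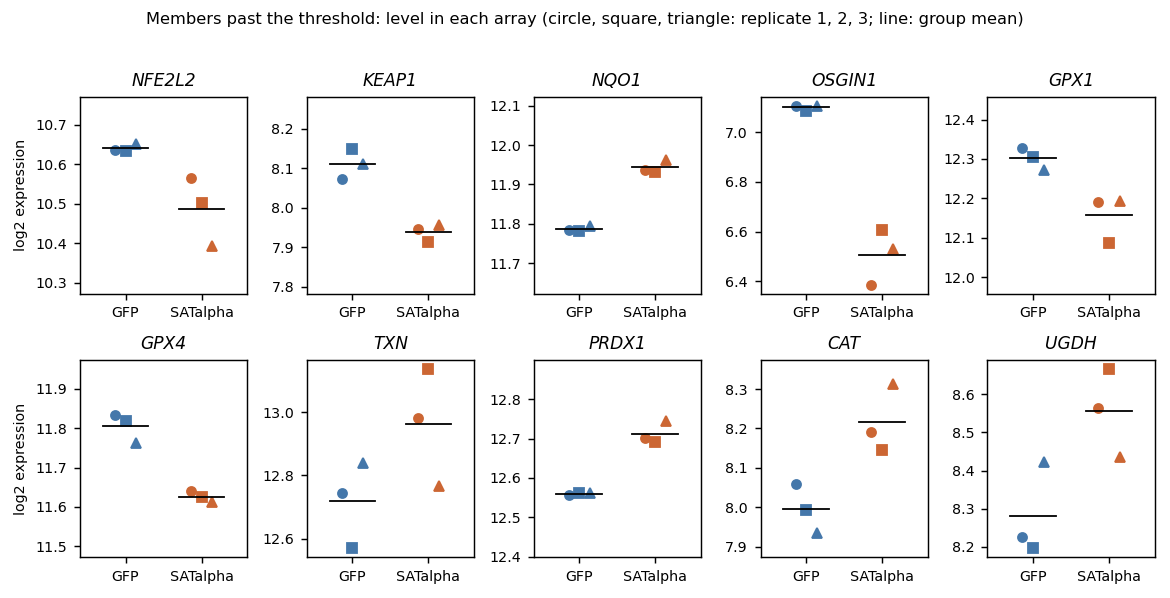
Log2 expression (vertical axis, a scale of its own in each panel) in each GFP and SATalpha array for the 10 members past the threshold, with the replicate number as the symbol and the group mean as a line. The groups are separate in 9 panels and overlap in that of TXN, where SATalpha replicate 3 (12.77) lies below GFP replicate 3 (12.84). The panels were picked by the test on these same arrays, so separate groups are no further evidence. Over all tested genes 37.6% had separate groups.

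In the glutathione group the peroxidases GPX1 and GPX4 fell and no member rose. Of its 8 members 2 fell and 6 did not pass limma's threshold, and 1 of the higher ones had an unadjusted p under 0.05. The shares of all tested genes were 13.0% lower and 7.72% higher. Whether the group departs from these shares was not tested. GPX4, the selenoenzyme that reduces lipid hydroperoxides in membranes, was at 11.83, 11.82 and 11.76 with GFP and at 11.64, 11.62 and 11.61 with satellite alpha. The groups were separate, with a difference of -0.18 (SE 0.033, limma adjusted p = 0.00189), or 0.883-fold. The second GPX4 probe set fell by 0.19 (limma adjusted p = 0.00294 over probe sets), and the gene passed whichever array was left out. GPX1, the cytosolic selenium-dependent peroxidase, stood at 12.33, 12.31 and 12.27 with GFP and at 12.19, 12.09 and 12.19 with satellite alpha. These groups too were separate, and the difference was -0.14 (SE 0.036, limma adjusted p = 0.0121). Without GFP replicate 1 it no longer passed (-0.13), and its limma adjusted p ran from 0.00345 to 0.087 across alternatives. The second GPX1 probe set also had separate groups but fell less, by 0.085, and did not pass (limma adjusted p = 0.138 over probe sets).

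Among the members that make and recycle glutathione, GCLM, GCLC and GSR did not pass. GCLM, the modifier subunit of the rate-limiting ligase and a standard NRF2 target, stood at 9.19, 9.28 and 9.20 with GFP and at 9.18, 9.22 and 9.16 with satellite alpha. The groups overlapped, with a difference of -0.04 (95% interval -0.13 to 0.06). GCLC, the catalytic subunit, differed by -0.02 (-0.15 to 0.11). GSR, which regenerates reduced glutathione, differed by 0.01 (-0.08 to 0.10). A second GSR probe set differed by 0.19 and had separate groups but did not pass (limma adjusted p = 0.136 over probe sets).

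Among the transferases, GSTP1, which conjugates glutathione to electrophiles, read 11.96, 11.91 and 11.95 with GFP and 11.83, 11.81 and 11.89 with satellite alpha. All 3 SATalpha values were lower, and the difference of -0.10 narrowly missed the threshold (95% interval -0.17 to -0.02, limma adjusted p = 0.0566). It passed without SATalpha replicate 3 (-0.12) and under 5 alternatives in all, with an adjusted p from 0.00941 to 0.198 across them and the others. GSTO1, of the omega class, differed by -0.03 (-0.09 to 0.04). MGST1, a membrane-bound transferase and peroxidase, differed by 0.11 (0.00035 to 0.23, limma adjusted p = 0.146) and passed when SATalpha replicate 2 was left out (0.17).

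In the thioredoxin group TXN and PRDX1 rose and 5 of 7 members did not pass. The share higher was 28.6%, against 7.72% of all tested genes, and 0 fell, against 13.0%. PRDX1, an abundant cytosolic peroxiredoxin, stood at 12.56, 12.56 and 12.56 with GFP and at 12.70, 12.69 and 12.74 with satellite alpha. The GFP arrays were nearly equal (SD 0.0037, n = 3) and all SATalpha values were above them. The difference was 0.15 (SE 0.03, limma adjusted p = 0.00284), or 1.11-fold, and it passed whichever array was left out.

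TXN, the small protein that passes electrons to peroxiredoxins and ribonucleotide reductase, was less even. Its brightest probe set read 12.74, 12.57 and 12.84 with GFP and 12.98, 13.14 and 12.77 with satellite alpha. The groups overlapped, since SATalpha replicate 3 lay below GFP replicate 3. The difference was 0.24 (SE 0.077, limma adjusted p = 0.0367). Each of GFP replicates 1 (0.26) and 2 (0.17) and SATalpha replicates 1 (0.23) and 2 (0.16), when left out, ended the call, as did median centring (0.24). The adjusted p ran from 0.00057 to 0.162 across alternatives. All 5 TXN probe sets were higher, by 0.10 to 0.24, and 2 of the other 4 had separate groups and passed over probe sets (0.14 and 0.18, limma adjusted p = 0.0129 and 0.0036).

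TXNRD1, the reductase that recharges thioredoxin with NADPH and a standard NRF2 target, was at 12.43, 12.48 and 12.46 with GFP and at 12.52, 12.50 and 12.46 with satellite alpha. The groups overlapped, and the difference was 0.04 (95% interval -0.03 to 0.11). Its 2 dimmer probe sets differed by 0.13 and 0.15, also with overlap. The peroxiredoxins of other compartments and kinds did not pass. PRDX2, of the cytosol, differed by -0.07 (-0.16 to 0.01), PRDX3, of mitochondria, by 0.03 (-0.05 to 0.11), and PRDX4, of the endoplasmic reticulum, by -0.09 (-0.17 to 0.0027). All 5 PRDX2 probe sets were lower, by 0.06 to 0.10, and none of them passed (limma adjusted p from 0.164 to 0.57 over probe sets). PRDX6, which uses glutathione rather than thioredoxin, differed by 0.05 (-0.01 to 0.12), with separate groups. Of its 4 probe sets only this one had separate groups, and the others differed by -0.0087 to 0.014.

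Catalase rose and SOD1 did not pass. CAT, which breaks down hydrogen peroxide in peroxisomes, was at 8.06, 7.99 and 7.94 with GFP and at 8.19, 8.15 and 8.31 with satellite alpha. The groups were separate, with a difference of 0.22 (SE 0.058, limma adjusted p = 0.0164), or 1.17-fold. Leaving out GFP replicate 2 (0.22) or GFP replicate 3 (0.19) ended the call, and the adjusted p ran from 0.00892 to 0.0652 across alternatives. The other CAT probe set differed by 0.13 with overlapping groups. SOD1, the cytosolic superoxide dismutase, differed by 0.07 (95% interval -0.01 to 0.15), and its 3 probe sets by 0.02 to 0.08.

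The enzymes that supply NADPH did not pass in limma, with 0 of 4 called and 0 at an unadjusted p under 0.05. Among all tested genes 20.8% were called. PGD, TKT and TALDO1, of the pentose phosphate pathway, differed by -0.05, 0.04 and -0.02. ME1, cytosolic malic enzyme, read 7.80, 7.92 and 7.95 with GFP and 8.11, 8.17 and 7.74 with satellite alpha. SATalpha replicate 3 was the lowest of the 6 arrays while the other SATalpha values were the highest. With all arrays the difference was 0.12 (95% interval -0.08 to 0.31), and without SATalpha replicate 3 it was 0.25 and passed (limma adjusted p = 0.00705, 0.00705 to 0.824 across alternatives). The other ME1 probe set had separate groups and rose by 0.22 (limma adjusted p = 0.0352 over probe sets).

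Of the genes for iron and heme, neither FTL nor BLVRB passed in limma (0 of 2, and 0 before adjustment). Among all tested genes 20.8% passed. FTL, the ferritin light chain, was read by 8 probe sets, all near the top of the arrays (above the 99th percentile of probe sets), where signals can saturate. The probe sets used for the called members PRDX1, TXN and GPX1 also lay above that percentile. Ferritin has near-identical copies in the genome, so the FTL probe sets may read more than 1 gene. All 8 were higher with satellite alpha with separate groups, by 0.04 to 0.14. The brightest read 13.28, 13.29 and 13.32 with GFP and 13.35, 13.37 and 13.34 with satellite alpha, a difference of 0.06 (95% interval -0.0042 to 0.12, limma adjusted p = 0.176). As the mean of its 8 probe sets FTL rose by 0.08 (limma adjusted p = 0.034, and 0.034 to 0.415 across alternatives). BLVRB, biliverdin reductase B, differed by -0.09 (-0.20 to 0.02).

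UGDH rose among the genes of conjugation and export. UGDH, which makes the UDP-glucuronate used in glucuronidation, was at 8.23, 8.20 and 8.42 with GFP and at 8.56, 8.67 and 8.44 with satellite alpha. SATalpha replicate 3 lay only just above GFP replicate 3. The difference was 0.27 (SE 0.069, limma adjusted p = 0.0131), or 1.21-fold, the largest rise of a member. The second UGDH probe set read 7.83, 8.00 and 7.97 with GFP and 8.23, 8.14 and 8.38 with satellite alpha, a rise of 0.32 (limma adjusted p = 0.00961 over probe sets). The gene-level call ended without GFP replicate 1 (0.25), GFP replicate 2 (0.23) or SATalpha replicate 1 (0.27), and the adjusted p ran from 0.000922 to 0.076 across alternatives. ABCC1, which exports glutathione conjugates, differed by 0.07 (95% interval -0.04 to 0.18).

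The 23 members that did not pass were bounded rather than shown to be equal. The intervals are those of the probe set used for each gene. In 19 of the 23 both ends of the 95% interval lay within 0.2 of 0 on the log2 scale, a change of 1.15-fold. The bound farthest from 0 was 0.31, for ME1. In 3 of the 23, HMOX1, GSTP1 and MGST1, the interval excluded 0. Other probe sets of some of the 19 had intervals that passed 0.2, among them GSR (to 0.35), MAFG (to 0.33) and GCLC (to 0.41). For these genes the bound holds only for the probe set used.

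Probe sets of one gene gave a further view of the members. Tested one by one over 49293 probe sets, 17 of the 83 member probe sets passed (20.5%), 11 higher and 6 lower, against 8.36% of all probe sets (4.18% higher and 4.19% lower), a pool that includes dim ones. The number of member probe sets called ran from 8 without GFP replicate 1 (11 without GFP replicate 2 or SATalpha replicate 1) to 18 without SATalpha replicate 3, and was 2 with no mean-variance trend. They belonged to 11 genes, and in none of these were probe sets called in opposite directions. Among the 26 members with more than 1 probe set, 19 had all of them on one side of 0. KEAP1 did not pass at this level (limma adjusted p = 0.0593), while ME1 and FTL each had at least 1 probe set that passed.

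**Figure D4:**
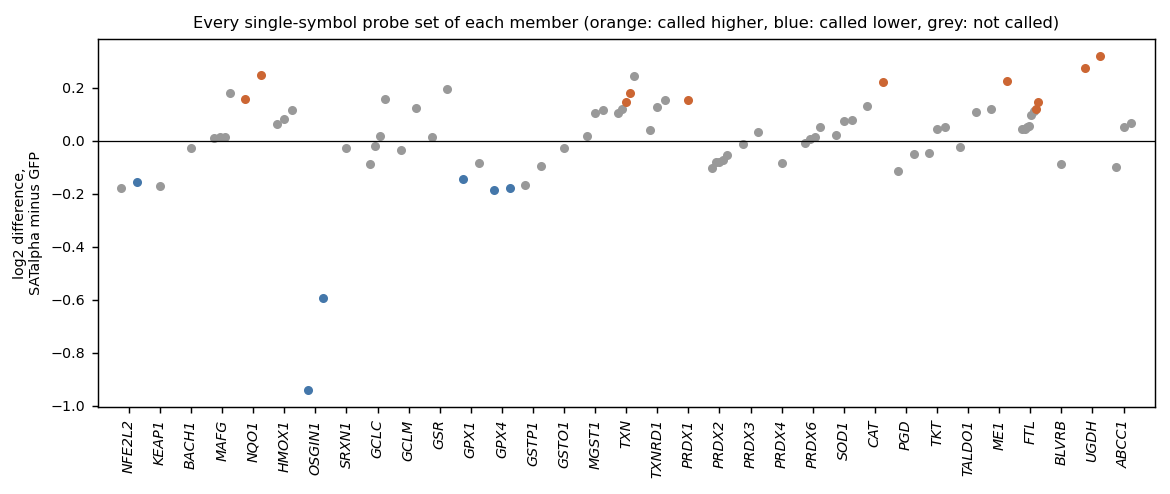
Log2 difference (SATalpha minus GFP, vertical axis) of each of the 83 member probe sets, placed by gene and coloured by the test over all probe sets (orange higher, blue lower, grey not called). Both OSGIN1 probe sets lie lowest, at -0.94 and -0.59, and the 8 FTL probe sets lie between 0.04 and 0.14.

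Some member probe sets shared the same highest and lowest array within each group. In 10 of the 83 (12.0%), GFP replicate 2 was the lowest and GFP replicate 3 the highest of the GFP arrays, and SATalpha replicate 3 the lowest and SATalpha replicate 2 the highest of the SATalpha arrays, against 4.32% of all probe sets. This order was chosen after the values were seen. The 10 included 4 of the 5 TXN probe sets, which read the same gene, and 1 each of MGST1, PRDX6, SOD1, GCLC, ABCC1 and UGDH. The ABCC1 probe set was dim, with means of 3.48 (GFP) and 3.38 (SATalpha), below the floor of 5.19 used for genes. The spread was largest in an MGST1 probe set that read 10.49, 10.39 and 10.79 with GFP and 10.72, 10.90 and 10.36 with satellite alpha. The part of this shared order in the differences of TXN and UGDH was not tested. The TXN probe set without this order and the second UGDH probe set, also without it, were higher by 0.14 and 0.32.

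**Figure D5:**
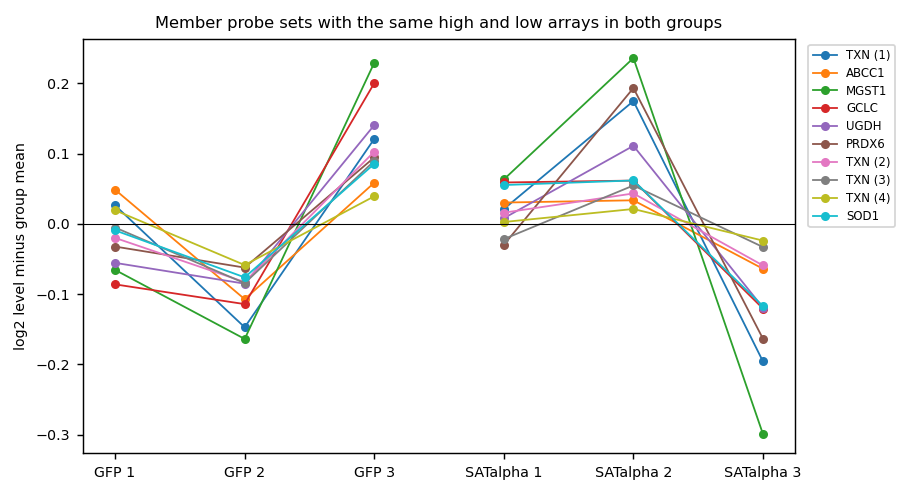
Log2 level minus the group mean (vertical axis) in each array for the 10 member probe sets that shared their highest and lowest array within each group. SATalpha replicate 3 is lowest and GFP replicate 3 highest of its group in all 10 because they were selected so, and the spread is largest in MGST1.

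Genes of the same pathways that were not members were read from 4 lists, which held 117 genes, of which 95 were tested. Of these 5 rose (5.26%) and 11 fell (11.6%), 16.8% in all, against 20.8% of all tested genes (7.72% higher and 13.0% lower). The median difference was -0.03, against -0.02 over all tested genes. The number higher was 1 without SATalpha replicate 1 or 2, 2 without any one of the GFP replicates and 7 without SATalpha replicate 3. The number lower ran from 6 without GFP replicate 1 (7 without SATalpha replicate 1) to 16 without SATalpha replicate 3. Among the other regulators 2 of 15 rose (13.3%) and 1 fell (6.67%). NFE2L3, a relative of NRF2, rose by 0.25 (limma adjusted p = 0.0162), and SQSTM1, the autophagy receptor that sequesters KEAP1, rose by 0.11 (limma adjusted p = 0.0333). PALB2, a DNA repair protein that can bind KEAP1, fell by 0.20, and CUL3, the scaffold of the KEAP1 ligase, differed by -0.03 (95% interval -0.13 to 0.08).

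Other glutathione genes had 4 lower (14.8%, against 13.0% of all tested genes) and 0 higher of 27 in limma, and 0 of the higher ones had an unadjusted p under 0.05. CHAC2, a glutathione-degrading cyclotransferase, fell by 0.30 (limma adjusted p = 0.00383). GSS, the second enzyme of glutathione synthesis, fell by 0.19, the mitochondrial glutaredoxin GLRX2 by 0.19 and the glyoxalase HAGH by 0.16. SLC7A11, the cystine importer and a known NRF2 target, differed by 0.11 (95% interval -0.01 to 0.23) and did not pass (limma adjusted p = 0.192).

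Of 22 other thioredoxin and thiol repair genes 2 rose and 2 fell (9.09% each). Among all tested genes 7.72% were called higher and 13.0% lower. SESN2, a sestrin that restrains mTORC1 and assists peroxiredoxin recovery, stood at 7.84, 7.76 and 7.84 with GFP and at 7.32, 7.19 and 7.28 with satellite alpha. The groups were far apart, and the difference of -0.55 (SE 0.059, limma adjusted p = 2.45e-05) was close in size to that of OSGIN1. SESN1 fell by 0.27 (limma adjusted p = 0.00623). The sulfhydryl oxidase QSOX1 and SELENOK, a selenoprotein of the endoplasmic reticulum, both rose by 0.14. Of 31 other detoxification, NADPH, heme and iron genes 1 rose (3.23%) and 4 fell (12.9%), against the same shares of all tested genes. CBR3, a carbonyl reductase, fell by 0.38 (limma adjusted p = 0.00265), the mitochondrial malic enzyme ME3 by 0.22, the constitutive heme oxygenase HMOX2 by 0.18 and the aldehyde dehydrogenase ALDH9A1 by 0.16. TFRC, the transferrin receptor, rose by 0.12 (limma adjusted p = 0.0249).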

How the data were processed

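Total RNA of the 6 samples was labelled for Affymetrix 3′ arrays, per the labels' protocols. The authors deposited log2 values per probe set. MAS5 and RMA are both named in the submitters' processing notes, but not which of them gave these values. Versions and a genome build were not given in the sources used here. Normalization such as RMA compresses differences of dim genes, and the brightest signals can saturate. Scanner files were not used here, so detection could not be judged, and the sources name no batch.

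Of the 49372 probe sets, 79 were controls, 44988 had 1 gene symbol, 1832 several and 2473 none listed. Only those with 1 symbol named a gene. Each gene was represented by its probe set of highest mean, and the lowest 40% of 18132 genes were left out (floor 5.19), which left 10879. SATalpha was compared with GFP in limma 3.58.1 (R 4.3.3; lmFit and trended eBayes). P-values were adjusted by Benjamini-Hochberg over all genes, and the threshold was 0.05. Intervals are limma's 95% intervals, unadjusted for multiple tests. Probe sets were tested in a separate fit over all 49293 without controls. The median SE was 0.065 on the log2 scale, and the number of arrays limits the precision.

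Members and lists were chosen with earlier results of these data known. All members are named. Values per array are given for called members and for NFE2L2, KEAP1, HMOX1, GCLM, SRXN1 and TXNRD1. Other genes with values per array (GSTP1, ME1, FTL, SESN2), the probe sets of MGST1 and the genes CUL3 and SLC7A11 were added after their values were seen. Of other pathway genes up to 6 per list past the threshold were named. The test was tested on simulated data. Same-numbered arrays did not deviate together, so the replicate number was not used in the fit. Alternatives were other filters, scaling, probe set choice, weights, no trend, a replicate block and each array left out.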

Additional observations from a re-analysis of the deposited data

How the results depend on the processing

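The number of members higher (5) and lower (5) was 1 and 1 without probe sets that can match several transcripts, where only 10 members, 2 of them called, could be tested. It was 2 and 3 with a replicate block, and 3 and 3 with no mean-variance trend. Leaving out 1 array gave 2 to 6 members higher and 2 to 5 lower. All tested genes called (2259) became 481 without probe sets that can match several transcripts (5012 genes tested) and 1300 with a replicate block, and 1216 to 2520 with 1 array left out. Other pathway genes higher (5) were 3 with quantile normalization, 10 with the mean of all probe sets or with array weights, and 1 without probe sets that can match several transcripts, with no mean-variance trend or with a replicate block. Other pathway genes lower (11) were 7 with the mean of all probe sets, no mean-variance trend or a replicate block, 2 without probe sets that can match several transcripts and 22 with array weights. With 1 array left out these counts were 1 to 7 and 6 to 16. Member probe sets called (17) were 9 with a replicate block, 2 with no mean-variance trend and 8 to 18 with 1 array left out. Apart from the tests with fewer genes or arrays, the cause of these moves was not tested. OSGIN1, NQO1 and GPX4 passed under every alternative that tested them, and PRDX1 under all but the one with no mean-variance trend (limma adjusted p = 0.0501).

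Directions turned only for members that were not called and stayed uncalled. With the mean of all probe sets GCLC was at 0.015, GCLM at 0.043 and TALDO1 at 0.042. With 1 array left out the values ran from -0.11 to 0.047 for BACH1 (above 0 without GFP replicate 2) and from -0.065 to 0.072 for MAFG (below 0 without GFP replicate 3 or SATalpha replicate 3). They ran from -0.046 to 0.016 for GCLC (above 0 without GFP replicate 2), from -0.011 to 0.029 for GSR (below 0 without GFP replicate 1 or SATalpha replicate 2) and from -0.046 to 0.0048 for TALDO1 (above 0 without SATalpha replicate 2). The replicate number does not pair the arrays: same-numbered arrays correlated at -0.0035, -0.239 and -0.287 in their deviations from the group means, and no array correlated best with its own number. Under the block 5 of the 10 called members kept their call, and NFE2L2, KEAP1, TXN, CAT and UGDH did not pass. GSTP1 passed under 5 alternatives, ME1 and MGST1 under 2 and 1, and FTL under 1.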
